A study of Mus musculus with 6 samples.

Results

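Imprinted genes are those that a cell transcribes mainly from the copy inherited from 1 parent. The 38 genes described here were chosen by name as well-known imprinted mouse genes, and a row was found for all 38 among the 55414 genes listed in the count table of embryonic pancreatic cells with and without the microRNA cluster mir-302. All 38 also passed the filter on low counts, which left 16353 genes to test. By textbook knowledge 23 of them are expressed from the paternal allele, 14 from the maternal allele, and Gnas from either, depending on the transcript. The counts carry no allele information, so the parental origin given here is background and was not measured.

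The libraries were made from polyadenylated RNA of sorted cells of mouse embryos at embryonic day (E) 10.5, with 3 libraries from WT embryos and 3 from KO embryos, grouped by the labels. Both groups carried Pdx1-Cre, a transgene that expresses Cre recombinase under control of the Pdx1 promoter in the pancreatic bud, and a Cre-activated tdTomato reporter, so that cells whose ancestors expressed the transgene were labelled, in the trunk region from which they were sorted. The WT group is labelled miR-302WT and the KO group miR-302KO. The KO embryos came from parents that were both heterozygous for the deletion, so they lacked mir-302 in every cell and from the start of development. Replicates are named by the numbers in the labels. The labels do not say whether a library was made from 1 embryo or from a pool, and p-values therefore measure only the spread between these libraries.

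Imprinted genes lie in clusters in which a stretch of DNA, methylated on 1 parental copy, sets which copy is read. Such clusters usually hold protein-coding genes expressed from 1 allele and long non-coding RNAs expressed from the other. Many paternally expressed members promote growth of the embryo and many maternally expressed members restrain it. In the pancreas, imprinted genes are known for roles in the endocrine lineage: paternally expressed PLAGL1 is tied to transient neonatal diabetes, CDKN1C to focal overgrowth of beta cells, and MEG3 is abundant in beta cells.

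In these data no imprinted gene, and none of the 16353 genes tested, passed an adjusted p of 0.05 in edgeR, the main test. The 2 non-coding RNAs Rian and Meg3 of the Dlk1-Dio3 cluster, both known to be maternally expressed, were lower in every KO library than in any WT library. Rian was the 1 gene of the 38 called by DESeq2, at 30.7 ± 1.32 CPM (SD, n = 3) in KO against 49.34 ± 9.002 in WT. DESeq2 called 4.87% of the genes to which it gave an adjusted p. Zdbf2, a paternally expressed gene, had the highest estimate of the 38, with 46.7 ± 11.5 CPM in KO and 26.0 ± 11.6 in WT, but its groups overlapped. CPM is the count of a gene scaled to a fixed library total after TMM normalization, which sets a factor per library that aligns the bulk of the genes.

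mir-302 acts by pairing its seed, bases 2 to 8 of the mature strand, with matching letters in target RNAs. The paper gives lowering of mRNA as the canonical role of microRNAs, by which loss of mir-302 would raise a target rather than lower it. The mature strands are shown to make the target matches below readable, with the seed in capitals, as RefSeq lists them. The cluster lies on the plus strand of mouse chromosome 3, at chr3:127545275-127545687 from the start of miR-302b-3p to the end of miR-302d-3p in GRCm38.p6, and miR-302a-3p is named only.
miR-302b-3p: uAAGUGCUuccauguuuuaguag
miR-302c-3p: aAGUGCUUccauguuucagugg
miR-302d-3p: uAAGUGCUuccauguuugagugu
miR-302b-3p and miR-302d-3p share the seed. The strand listed for miR-302c-3p begins 1 base later in the same run of letters.

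Matches to the shared seed were looked for on the sense strand in the longest annotated 3′UTR of 31 coding genes and in the longest whole transcript of the 7 non-coding ones. A match is 8 letters (the seed match followed by A), or 7 letters with or without that A. There were 13 genes with a match and 32 matches in all. H19, Meg3, Rian, Zim1 and Zdbf2 had an unadjusted p under 0.05 in edgeR, and of these H19 and Zdbf2 had no match. The 8-letter matches of Rian, Meg3 and Zim1 are shown with 30 bases in all and the match in capitals.
Rian, base 2135 of the transcript: agatcctagcaAGCACTTAtttctttaggt
Rian, base 6284 of the transcript: atgttctattcAGCACTTActtgcccaaga
Meg3, base 9051 of the transcript: cactctattatAGCACTTAgcgtgtctgcc
Zim1, base 3497 of the 3′UTR: ttcccatgaacAGCACTTAcctgtattaaa
The only other gene with an 8-letter match was Kcnq1ot1, with 1 among 13 matches in a transcript of 93092 bases. A match is a run of letters and no evidence of binding. Of the 13 genes with a match 12 had a lower estimate in KO, and the median log2 fold change, KO minus WT, was -0.22. Of the 25 without a match 14 had a lower one and the median was -0.13. Among all genes tested 54.4% had a lower estimate, but matches were not looked for outside the imprinted genes. The searched length ran from 271 bases for Phlda2 to 93092 for Kcnq1ot1, and a longer sequence has more room for a match. Whether a match bears on the difference between genotypes was not tested.

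The libraries held 17352498 to 26634523 counts. The Mir302a to Mir302d rows hold 2 counts in all, both in Mir302d of KO replicate 3, so the mRNA counts do not check the genotype labels. Larp7, the gene in whose intron the cluster lies, overlapped between the genotypes with a log2 fold change of -0.03 ± 0.14 (SE). The summed CPM of 10 pancreatic progenitor markers was 1023 to 1157 in WT and 1086 to 1274 in KO, and none of the 10 was at 0 throughout. The sum rests mostly on genes such as Gata4, at a mean of 274 CPM, while Ptf1a and Nkx6-1 were at 2.65 and 2.50 CPM. It does not say which cells held the RNA. Of the 10 markers 2, Gata4 and Mnx1, had an unadjusted p under 0.05 in edgeR, with higher estimates in KO. Such a p was found for 10.4% of all genes tested. The libraries also held RNA of other cell types, and unevenly. The sum of 8 red blood cell markers reached 16099 CPM in WT replicate 3 and 6487 CPM for KO replicate 1, against 0.912 to 340 CPM in the other 4 libraries. The sum of 10 mesenchyme markers was 193 to 1152 CPM in WT, 1296 and 1108 CPM in KO replicates 1 and 3, and 51.2 CPM in KO replicate 2. The sum of 6 endocrine markers was 1092 CPM in WT replicate 1 and 1950 to 5618 CPM in the other libraries, and that of 7 liver markers was 704 to 1807 CPM in WT and 545 to 1894 CPM in KO. In such bulk libraries, fewer cells of a type and less RNA per cell cannot be told apart.

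Imprinted genes made up 0.826%, 0.906% and 0.986% of all counts in the WT libraries, in the order of their replicate numbers, and 0.703%, 0.737% and 0.94% in the KO libraries. The shares of the genotypes overlapped, since KO replicate 3 lay above WT replicates 1 and 2. Levels of different genes are compared per kilobase of annotated exon. Peg3 stood first with a mean of 310 CPM per kb over the 6 libraries, followed by Dlk1 at 178, Mest at 146 and Grb10 at 138 CPM per kb. These 4 lay between the 97.9 and 99.3 percentiles of the tested genes. Mest and Grb10 traded places between libraries, as Mest ranged from 94.4 to 217 CPM per kb and Grb10 from 107 to 172 CPM per kb. Nnat at 67.9, H19 at 56.6, Ndn at 44.6 and Asb4 at 40.3 CPM per kb came next, then Cdkn1c at 33.5 and Snrpn at 18.3 CPM per kb. At the other end stood Kcnq1ot1 at 0.267 and Zrsr1 at 0.251 CPM per kb, at the 6.9 and 6.4 percentiles. The exon length counts every annotated isoform, so it is longer than any 1 transcript of genes such as Meg3, Rian and Ube3a.

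**Figure D1:**
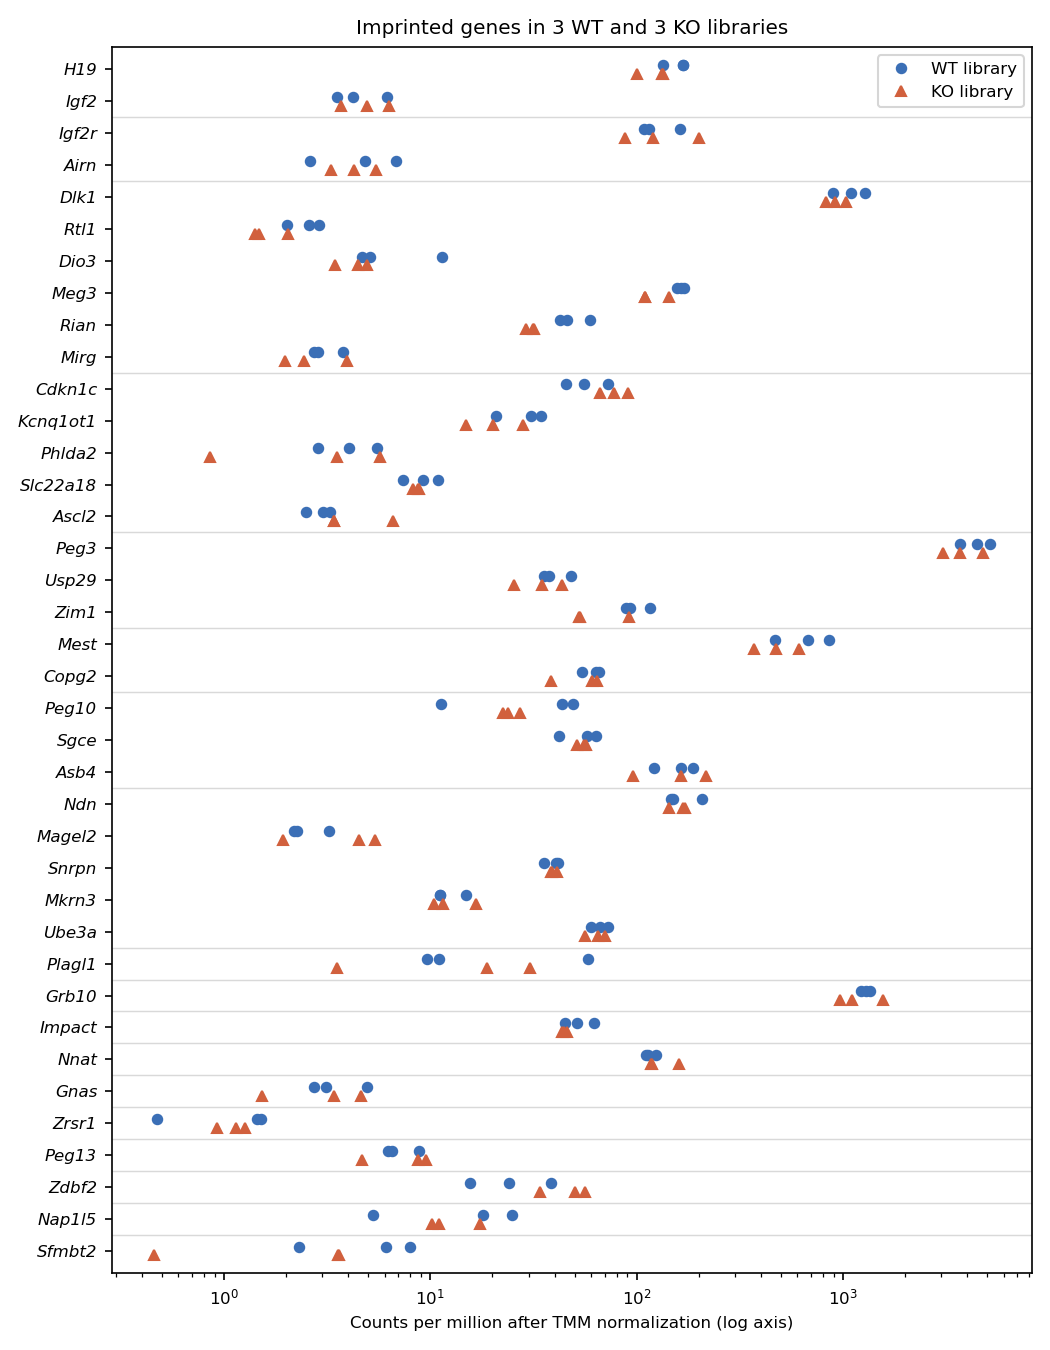
Level of each of the 38 imprinted genes in CPM after TMM normalization on a log axis, with 1 circle per WT library and 1 triangle per KO library. Grey lines separate the clusters. The WT and KO symbols lie apart for H19, Meg3, Rian and Ascl2.

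The question for every gene was whether its level differed between KO and WT. Of the 38 imprinted genes 26 had a lower and 12 a higher estimate in KO, and the median log2 fold change was -0.17. Among all 16353 genes 54.4% had a lower estimate and the median was -0.02. An unadjusted p under 0.05 in edgeR was found for 5 imprinted genes, H19, Meg3, Rian and Zim1 with lower and Zdbf2 with higher estimates, and for 10.4% of all genes. With 0% of all genes called in edgeR at an adjusted p of 0.05, the smallest adjusted p of any gene was 0.0846. DESeq2 called 1 of the 38 where it called 4.87% of the genes to which it gave an adjusted p (606 higher and 93 lower). The KO libraries all lay below the WT libraries for 3 imprinted genes, against 7.99% of all genes, and all above for 1, against 8.36% of all genes. Read against these shares, the counts are no result about imprinted genes as a group. Without WT replicate 3 the median over the imprinted genes was -0.05 and 21 of the 38 had a lower estimate, as many as without KO replicate 2.

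By parental allele, 10 of the 14 maternally expressed genes had lower estimates, and the median log2 fold change was -0.13, while 15 of the 23 paternally expressed genes had lower estimates and a median of -0.21. Of the 5 genes with an unadjusted p under 0.05 in edgeR, found for 10.4% of all genes, 4 were maternally expressed and lower, and 1 was paternally expressed and higher. The 3 genes whose KO libraries lay all below WT and the 1 whose KO libraries lay all above were maternally expressed. Such separation was found for 7.99% and 8.36% of all genes. Meg3 and Rian are in both counts and lie in 1 cluster, so they are not separate cases. These counts are no result about either parental group. The medians of both parental groups moved with single libraries. Without WT replicate 3 that of the paternally expressed genes was 0.01, and without KO replicate 2 that of the maternally expressed genes was -0.03. The difference between the 2 parental groups was not tested.

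**Figure D2:**
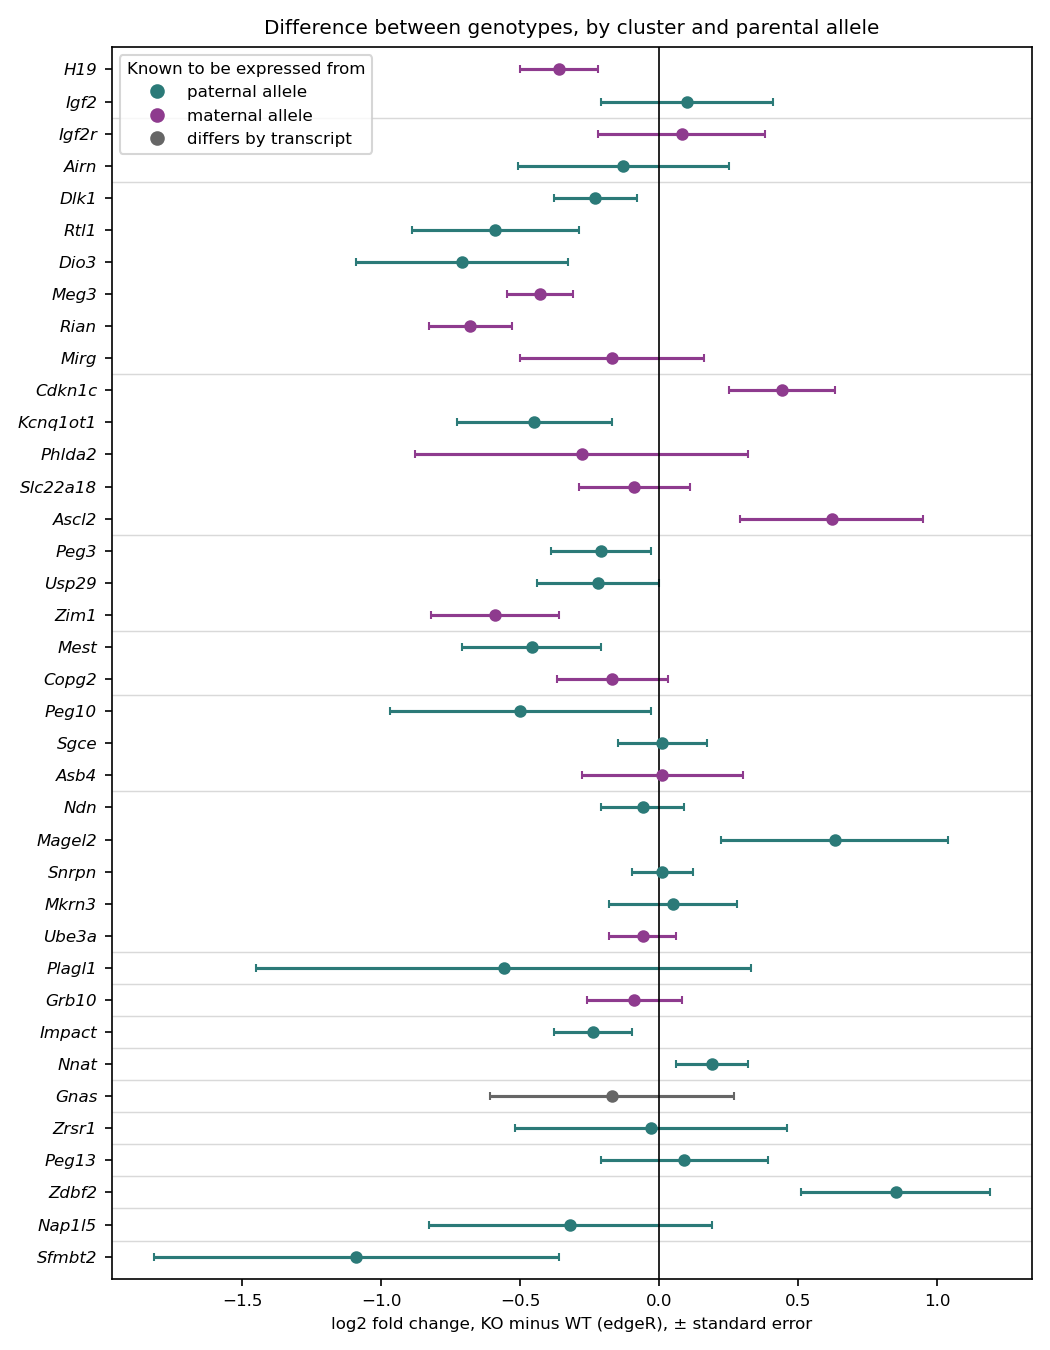
Log2 fold change, KO minus WT, from edgeR for each imprinted gene, with its standard error as a bar. Colours give the parental allele known to be expressed and grey lines separate the clusters. All 6 genes of the Dlk1-Dio3 cluster lie left of 0, and the widest bars belong to Plagl1, Sfmbt2 and Phlda2.

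The Dlk1-Dio3 cluster on chromosome 12 holds 3 paternally expressed coding genes, Dlk1, Rtl1 and Dio3, and the maternally expressed non-coding RNAs Meg3, Rian and Mirg, which are thought to form parts of 1 long transcript and which carry many snoRNAs and microRNAs. All 6 genes had lower estimates in KO, and the median log2 fold change was -0.51. Without WT replicate 3 or without KO replicate 1 it was 5 of the 6, with Mirg the exception.

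Rian (ENSMUSG00000097451.12), also known as Meg8 and host to C/D box snoRNAs, was at 46.0, 59.6 and 42.5 CPM in WT and at 31.3, 31.7 and 29.2 CPM in KO, with libraries here and below in the order of their replicate numbers. The groups did not overlap, and the KO libraries lay closer together than the WT libraries. The log2 fold change was -0.68 ± 0.15 (SE), with an unadjusted p of 0.0026 and an adjusted p of 0.147 in edgeR. DESeq2 gave an adjusted p of 0.00359. Rian was at the 4.0 percentile of the log2 fold changes of all genes. Its call in DESeq2 was kept with each library left out in turn, at adjusted p from 0.00539 to 0.0467, and lost without the 2 libraries with most hemoglobin RNA, at a log2 fold change of -0.78 and an adjusted p of 0.12.

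Meg3 (ENSMUSG00000021268.18), a non-coding RNA also called Gtl2 and the first of the maternal transcripts, was at 156.8, 168.7 and 163.4 CPM in WT and at 109.9, 109.6 and 143.1 CPM in KO. The groups did not overlap and KO replicate 3 was the nearest to WT. The log2 fold change was -0.43 ± 0.12 (SE), with an unadjusted p of 0.00704 and an adjusted p of 0.206 in edgeR, and 0.0596 in DESeq2. Without KO replicate 3, the KO library nearest to WT, DESeq2 called Meg3, at an adjusted p of 9.78e-06. With other libraries left out in turn it did not, and the adjusted p in DESeq2 reached 0.417. Mirg, the last of the maternal transcripts and host to a large set of microRNAs, was low, at 2.73 to 3.79 CPM in WT and 1.98 to 3.93 CPM in KO, and overlapped with a log2 fold change of -0.17 ± 0.33. Thus the 3 maternal RNAs gave unequal estimates, and whether Mirg differed from Rian in its change was not tested.

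Dlk1, a membrane-bound relative of the Notch ligands found on many progenitor cells, was at 1279, 1091 and 893 CPM in WT and at 831, 917 and 1040 CPM in KO. The groups overlapped, and the log2 fold change of -0.23 ± 0.15 had an unadjusted p of 0.165 in edgeR. Dio3, the deiodinase that inactivates thyroid hormone, was at 4.67, 11.3 and 5.10 CPM in WT and at 3.47, 4.96 and 4.46 CPM in KO. WT replicate 2 stood above the rest, and the log2 fold change of -0.71 ± 0.38 was -0.17 without it. Rtl1, a gene derived from a retrotransposon, was at 2.01 to 2.87 CPM in WT and 1.41 to 2.05 CPM in KO, with overlap and a log2 fold change of -0.59 ± 0.30.

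The ratio of Rian to Meg3 counts was 0.293, 0.353 and 0.26 in WT and 0.285, 0.289 and 0.204 in KO, so the genotypes overlapped. The ratio of Meg3 to Dlk1, a maternal over a paternal gene of the cluster, was 0.123, 0.155 and 0.183 in WT and 0.132, 0.119 and 0.138 in KO, again with overlap. The rest of the interval between Dlk1 and Dio3 was looked at after these values were seen. Of 118 annotated genes in it 99 were listed in the counts and 12 were tested. A lower estimate in KO was found for 11 of the 12, the 6 above among them, and for 54.4% of all genes tested. The 1 other gene whose groups did not overlap was the pseudogene Gm3379, at 32.7, 28.6 and 30.2 CPM in WT and 22.5, 24.9 and 21.0 CPM in KO. Its log2 fold change was -0.42 ± 0.13, with an unadjusted p of 0.0145 in edgeR. The KO libraries lay all below the WT libraries for 7.99% of all genes. Dio3os, an antisense RNA at Dio3, was the 1 tested gene with a higher estimate, at 0.29 ± 0.49. The 59 listed microRNA genes of the interval held 66 counts in all 6 libraries together and the 18 snoRNA genes held 11, so this assay does not give the level of the small RNAs of the cluster.

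**Figure D3:**
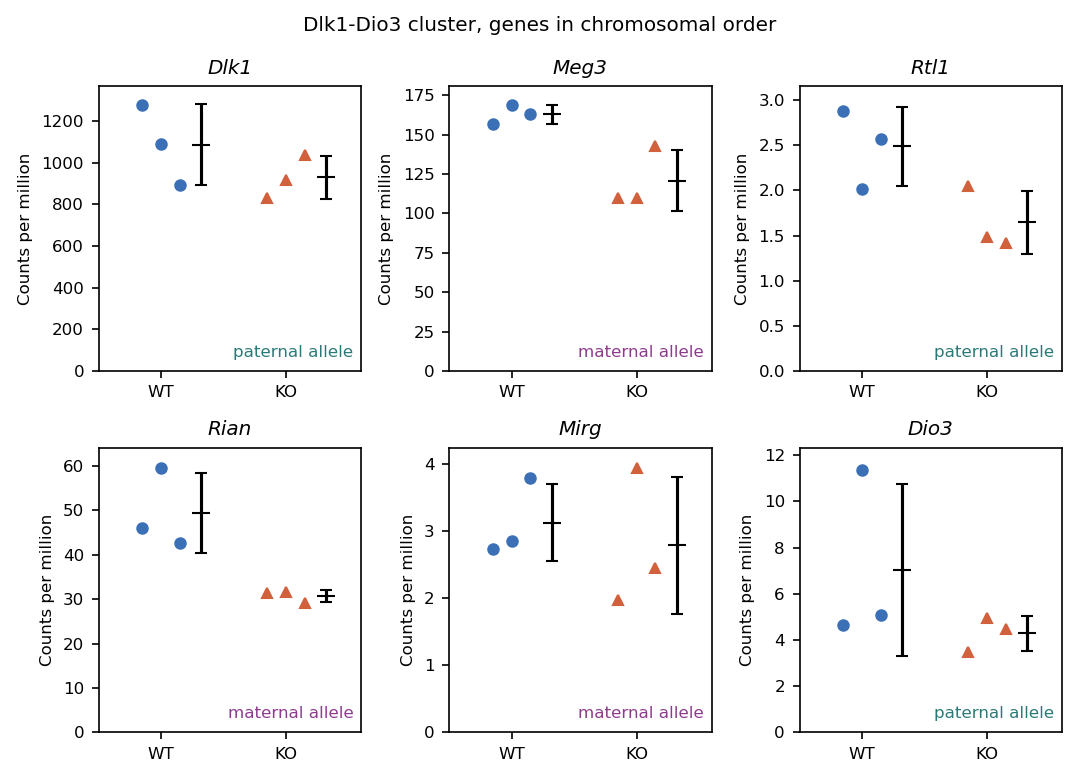
CPM of the 6 imprinted genes of the Dlk1-Dio3 cluster in chromosomal order, with 3 WT libraries as circles, 3 KO libraries as triangles, and the mean ± SD of each group as a black bar beside them. Axes start at 0. The groups lie apart for Meg3 and Rian and overlap for the other 4 genes.

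Promoters are of interest in this cluster because its non-coding RNAs depend on methylation set near the Meg3 start. RefSeq promoters of 300 bases, from 250 bases before to 50 after the start, were found for 31 of the 38 genes, 47 promoters in all, in GRCm38.p6. The sequence TGCCGC, which the zinc finger protein ZFP57 binds when it is methylated, stood on either strand in 12 of these 47 promoters (11 genes) and in 11.61% of all 32851 promoters. The cAMP response element TGACGTCA stood in 4 of the 47 and in 1.79% of all, and TATAAA on either strand in 10 of the 47 and in 13.62% of all. Some of the 47 overlap, so a site can be counted more than once. The promoters of Peg3 and Usp29 hold the same TGACGTCA site, and promoters of Mest and of Gnas overlap as well. The median number of CpG per promoter was 14 for the imprinted genes and 7 for all. The Meg3 promoter is shown because it held all 3 motifs, at chr12:109540746-109541045 on the plus strand, with the matches in capitals; GCGGCA is the reverse strand of the first motif, and the last run of capitals holds TATAAA on both strands, overlapping.
Meg3: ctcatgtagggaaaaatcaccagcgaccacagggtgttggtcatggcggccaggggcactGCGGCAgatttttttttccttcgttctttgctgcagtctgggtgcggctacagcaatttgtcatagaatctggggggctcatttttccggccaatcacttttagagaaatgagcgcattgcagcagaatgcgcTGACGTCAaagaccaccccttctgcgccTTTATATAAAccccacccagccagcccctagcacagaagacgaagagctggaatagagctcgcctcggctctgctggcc
This promoter held 13 CpG. The promoter listed for Rian held none, and none of the 3 motifs. Methylation was not measured, and a match says nothing of whether a factor was bound.

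The Igf2-H19 cluster on chromosome 7 holds H19, a maternally expressed non-coding RNA, and paternally expressed Igf2, the main fetal growth factor. H19 (ENSMUSG00000000031.17) was at 167.3, 133.9 and 167.7 CPM in WT and at 132.3, 133.6 and 100.2 CPM in KO. The groups did not overlap, but WT replicate 2 and KO replicate 2 were nearly level. The log2 fold change was -0.36 ± 0.14 (SE), with an unadjusted p of 0.038 and an adjusted p of 0.428 in edgeR. Igf2 was at 3.53, 6.20 and 4.22 CPM in WT and at 6.30, 3.70 and 4.95 CPM in KO, with overlap and a log2 fold change of 0.10 ± 0.31. Its level of 0.842 CPM per kb, at the 21.0 percentile, has to be read beside the annotation: 64.5% of its exon bases lie in exons of Gm49394 or Igf2os as well, which were listed with 0 and 84 counts. The handling of reads shared between genes is not given in the sources used here, so the Igf2 count is uncertain. The same holds for Gnas, which encodes the stimulatory G protein alpha subunit and other products, at 2.73 to 4.92 CPM in WT and 1.52 to 4.61 CPM in KO, with 22.0% of its exon bases shared with Gm20721 (1 count) or Nespas (149 counts). Its log2 fold change was -0.17 ± 0.44.

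The Igf2r-Airn pair on chromosome 17 holds maternally expressed Igf2r, the receptor that clears IGF2, and the paternally expressed antisense RNA Airn that silences it in cis. Igf2r was at 108.4, 162.4 and 115.3 CPM in WT and at 119.5, 88.2 and 200.4 CPM in KO. The KO libraries held both the lowest and the highest value, and the log2 fold change was 0.08 ± 0.30. Airn, low at 2.63 to 6.80 CPM in WT and 3.30 to 5.44 CPM in KO, overlapped with a log2 fold change of -0.13 ± 0.38. Airn runs against Igf2r, and since the library kit does not mark strand, reads from the introns they share cannot be told apart.

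The Kcnq1 cluster on chromosome 7 holds growth-restraining maternal genes and the paternal non-coding RNA Kcnq1ot1 that silences them. Cdkn1c, the cyclin-dependent kinase inhibitor p57, was at 55.8, 72.7 and 45.5 CPM in WT and at 90.7, 66.8 and 77.8 CPM in KO. KO replicate 2 lay below WT replicate 2, so the groups overlapped. The log2 fold change was 0.44 ± 0.19 (SE), with an unadjusted p of 0.0532 in edgeR, and 30.7% of its exon bases are shared with a second annotated gene, Gm44732, which had 2 counts. Kcnq1ot1 was at 34.4, 20.8 and 30.8 CPM in WT and at 28.0, 14.9 and 20.03 CPM in KO, with overlap and a log2 fold change of -0.45 ± 0.28. It is read against Kcnq1, with the same limit as Airn. Slc22a18, a membrane transporter, was at 10.9, 9.22 and 7.38 CPM in WT and at 8.80, 8.72 and 8.27 CPM in KO, with all KO values inside the WT range. Ascl2, a transcription factor of the trophoblast and of intestinal stem cells, was at 2.50, 3.02 and 3.25 CPM in WT and at 6.60, 3.42 and 3.43 CPM in KO. It was the 1 gene of the 38 whose KO libraries all lay above WT, as they did for 8.36% of all genes. Its log2 fold change was 0.62 ± 0.33. Phlda2, a gene that restrains placental growth, ranged from 0.855 CPM in KO replicate 2 to 5.70 CPM in KO replicate 1, and the WT values lay between.

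The Peg3 cluster on chromosome 7 had lower estimates for all 3 genes tested, with a median log2 fold change of -0.22. Peg3, a large zinc finger protein expressed from the paternal allele in many progenitor cells, was at 3687, 4450 and 5166 CPM in WT and at 3049, 3677 and 4762 CPM in KO. The groups overlapped, and the log2 fold change was -0.21 ± 0.18. Usp29, a paternally expressed ubiquitin protease that shares a bidirectional promoter with Peg3, was at 35.5, 37.7 and 48.1 CPM in WT and at 34.9, 43.4 and 25.6 CPM in KO, with overlap and a log2 fold change of -0.22 ± 0.22. Zim1 (ENSMUSG00000002266.18), a maternally expressed zinc finger gene, was at 92.9, 88.3 and 116 CPM in WT and at 52.8, 91.8 and 53.4 CPM in KO. KO replicates 1 and 3 lay far below WT, while KO replicate 2 lay within the WT range. The log2 fold change was -0.59 ± 0.23 (SE), with an unadjusted p of 0.037 and an adjusted p of 0.425 in edgeR and 0.169 in DESeq2. Without KO replicate 2, the library with the lowest mesenchyme and red blood cell sums, DESeq2 called Zim1 at an adjusted p of 3.97e-05. The part of these differences between libraries in the result was not tested. With other libraries left out in turn DESeq2 did not call it, and its adjusted p reached 0.773.

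On chromosome 6, Mest, a paternally expressed enzyme of the hydrolase fold that is abundant in embryonic mesoderm, was at 676, 470 and 857 CPM in WT and at 473, 372 and 613 CPM in KO. The groups overlapped and the log2 fold change was -0.46 ± 0.25. Copg2, a coat protein gene that runs against Mest at their 3′ ends, was at 65.6, 63.3 and 54.5 CPM in WT and at 38.4, 60.8 and 64.2 CPM in KO. Of the exon bases of Copg2, 17.8% overlap Mest, and the ratio of Mest to Copg2 counts was 6.12 to 15.7 over the libraries. Sgce, the epsilon subunit of the sarcoglycan complex, was at 42.1, 63.6 and 57.3 CPM in WT and at 56.7, 51.6 and 55.3 CPM in KO, with a log2 fold change of 0.01 ± 0.16. Asb4, a ubiquitin ligase subunit, was at 120.9, 187.4 and 164.8 CPM in WT and at 164.7, 95.8 and 216.6 CPM in KO, with a log2 fold change of 0.01 ± 0.29. The KO libraries lay on both sides of the WT libraries.

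The Snrpn-Ube3a cluster on chromosome 7, known from Prader-Willi and Angelman syndromes, had 2 lower and 3 higher estimates and a median log2 fold change of 0.01. Snrpn, a splicing protein, was at 35.7, 40.4 and 41.5 CPM in WT and at 38.6, 41.2 and 39.0 CPM in KO, with a log2 fold change of 0.01 ± 0.11 (SE). Its highest library was 1.16 times its lowest, the narrowest range of the 38. Ube3a, the ubiquitin ligase that is imprinted in neurons and read from both alleles in most other tissues, was at 73.0, 60.4 and 66.8 CPM in WT and at 64.8, 56.5 and 70.1 CPM in KO, with a log2 fold change of -0.06 ± 0.12. Both genes overlapped between the genotypes. Ndn, a MAGE family protein that restrains proliferation, was at 147.2, 150.2 and 207.3 CPM in WT and at 168.6, 143.2 and 172.4 CPM in KO, with a log2 fold change of -0.06 ± 0.15. Mkrn3, a ubiquitin ligase, was at 14.9, 11.2 and 11.1 CPM in WT and at 16.7, 10.4 and 11.5 CPM in KO. Magel2, a relative of Ndn, was low, at 2.18 to 3.24 CPM in WT and 1.94 to 5.37 CPM in KO, and overlapped. Other annotated genes share 34.1% of the exon bases of Snrpn and 27.3% of those of Ube3a.

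Among the genes that lie outside these clusters, Zdbf2 (ENSMUSG00000027520.17), a paternally expressed zinc finger gene on chromosome 1, was at 15.6, 38.4 and 23.9 CPM in WT and at 50.4, 55.9 and 33.9 CPM in KO. WT replicate 2 lay above KO replicate 3, so the groups overlapped. The log2 fold change was 0.85 ± 0.34 (SE), with an unadjusted p of 0.0388 and an adjusted p of 0.433 in edgeR and 0.0863 in DESeq2. DESeq2 called it without WT replicate 2, at a log2 fold change of 1.27 and an adjusted p of 0.00052, and without KO replicate 3, at 1.06 and 0.0395. These are the libraries that made the groups overlap. With others left out in turn it was not called, and the adjusted p in DESeq2 reached 0.507. Grb10, an adaptor that dampens insulin and IGF receptor signalling and is maternally expressed outside neurons, was at 1224, 1350 and 1297 CPM in WT and at 1099, 971 and 1565 CPM in KO. The WT libraries lay close together and the KO libraries on both sides of them, with a log2 fold change of -0.09 ± 0.17. Nnat, a small membrane protein that is paternally expressed and aids insulin secretion in beta cells, was at 111.4, 113.1 and 123.5 CPM in WT and at 160.5, 119.0 and 117.3 CPM in KO, with overlap and a log2 fold change of 0.19 ± 0.13. Impact, a paternally expressed inhibitor of the kinase GCN2, was at 44.9, 51.1 and 62.4 CPM in WT and at 43.4, 46.2 and 44.3 CPM in KO, with overlap and a log2 fold change of -0.24 ± 0.14. Peg13, a paternally expressed non-coding RNA in an intron of Trappc9, was at 6.55, 8.77 and 6.26 CPM in WT and at 8.76, 4.67 and 9.52 CPM in KO. Zrsr1, a splicing factor gene in an intron of Commd1, was at 0.471 to 1.51 CPM throughout.

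Some imprinted genes varied more between libraries of 1 genotype than between genotypes. Plagl1, a zinc finger transcription factor, was at 10.98, 9.61 and 57.8 CPM in WT and at 30.5, 3.53 and 18.9 CPM in KO, a 16.4-fold range. Its lowest value was in KO replicate 2, which also had the lowest mesenchyme sum of 51.2 CPM, and its 3 highest values were in the 3 libraries with the highest mesenchyme sums, from 1108 to 1296 CPM. The red blood cell sum was highest in the same 3 libraries, at 16099 CPM in WT replicate 3 and 6487 and 340 CPM in KO replicates 1 and 3. It too was lowest in KO replicate 2, at 0.912 CPM. The log2 fold change of Plagl1 was -0.56 ± 0.89 and turned to 0.82 without WT replicate 3. Sfmbt2, a Polycomb group gene whose intron hosts a large microRNA cluster, ranged 17.4-fold, from 0.456 CPM in KO replicate 2 to 7.93 CPM in WT replicate 2, with a log2 fold change of -1.09 ± 0.73.

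Peg10, a retrotransposon-derived gene next to Sgce, was at 11.3, 49.3 and 43.4 CPM in WT and at 22.4, 27.1 and 23.7 CPM in KO. Nap1l5, an intronless gene in an intron of Herc3, was at 5.28, 25.0 and 18.1 CPM in WT and at 10.2, 17.4 and 10.99 CPM in KO. WT replicate 1 was the lowest library for both genes and also had the lowest endocrine sum, 1092 CPM, and the 3 libraries with the highest endocrine sums (5075 and 3857 CPM in WT replicates 2 and 3 and 5618 CPM in KO replicate 2) were the 3 highest for both. The sum of 8 neural markers was highest in the same 3 libraries, at 86.0 and 74.8 CPM in WT replicates 2 and 3 and 102.9 CPM in KO replicate 2. It was lowest in KO replicate 3, at 47.5 CPM. Without WT replicate 1 the log2 fold change of Peg10 went from -0.50 ± 0.47 to -0.92, and DESeq2 called it. The part of the other cell types in the values of these 4 genes was not tested.

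**Figure D4:**
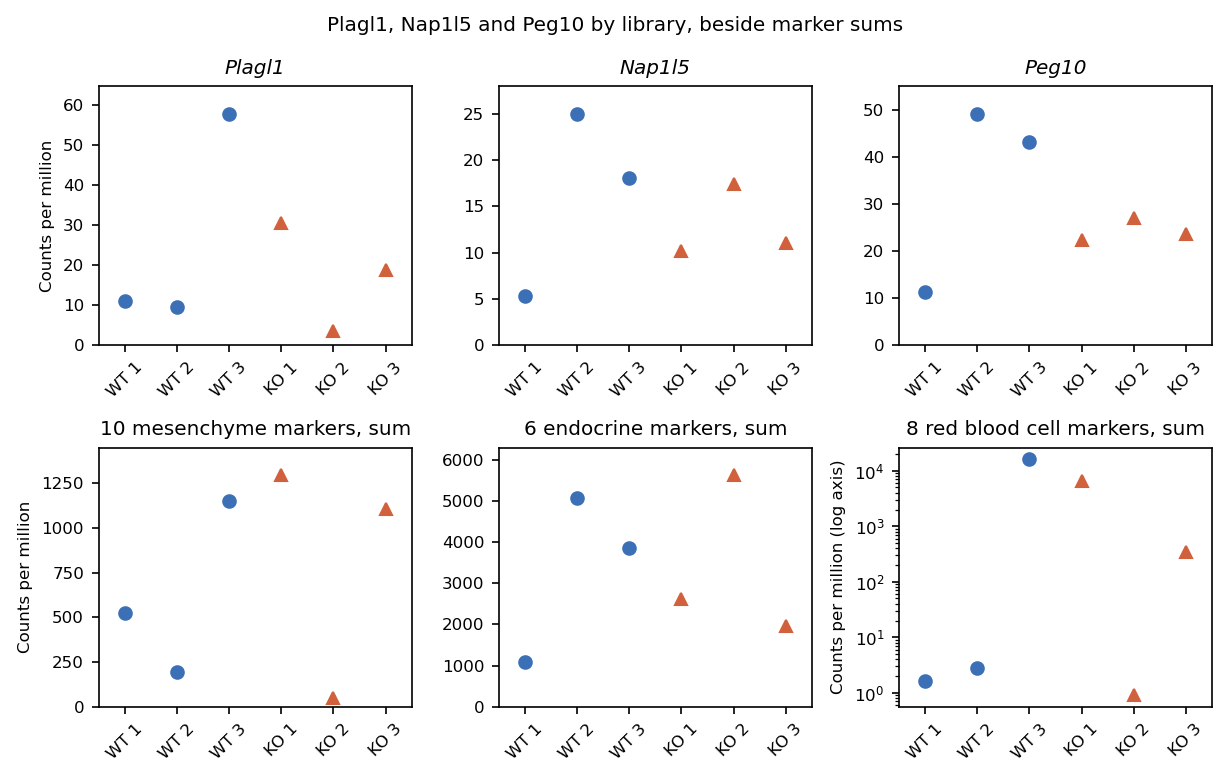
CPM of Plagl1, Nap1l5 and Peg10 in each library (upper row, axes from 0) above the summed CPM of mesenchyme, endocrine and red blood cell markers in the same libraries (lower row, the last on a log axis), with WT as circles and KO as triangles. KO replicate 2 is lowest for Plagl1 and for the mesenchyme and red blood cell sums, and WT replicate 1 is lowest for Nap1l5, Peg10 and the endocrine sum.

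A property of the transcripts was compared as well. Of the 38 genes 7 held, in at least 1 annotated transcript, 200 consecutive bases that were 75% or more G or C: Igf2, Igf2r, Dlk1, Cdkn1c, Ube3a, Gnas and Zdbf2. The median log2 fold change of these 7 was 0.08 and that of the other 31 was -0.21. Among all genes tested, the 3958 with such a stretch had a median of 0.10 and the rest had one of -0.05. The medians of the imprinted genes lay in the same order as those of all genes. The first rests on only 7 genes, 3 with a lower and 4 with a higher estimate, and the difference was not tested.

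Other gene groups bear on imprinting. Of 32 further imprinted genes 27 were tested, 12 with a lower and 15 with a higher estimate. The median was 0.02, and 5 had an unadjusted p under 0.05 in edgeR, as did 10.4% of all genes. Begain, near Dlk1 on chromosome 12, was at 0.895, 0.782 and 0.874 CPM in WT and at 2.76, 1.54 and 2.34 CPM in KO, higher without overlap but low. Rasgrf1, a paternally expressed exchange factor for Ras, was at 50.9, 41.7 and 46.4 CPM in WT and at 32.9, 21.3 and 34.0 CPM in KO, with a log2 fold change of -0.66 ± 0.20 and a DESeq2 adjusted p of 0.0426. Calcr, the calcitonin receptor, in the same region of chromosome 6 as Asb4, was at 4.76, 6.59 and 11.8 CPM in WT and at 12.6, 33.8 and 15.9 CPM in KO, with a log2 fold change of 1.42 ± 0.46 and a DESeq2 adjusted p of 0.0146. These 3 were picked for the smallest edgeR p-values of that list, so that their groups did not overlap is no separate support. Over all genes the KO libraries lay all below WT for 7.99% and all above for 8.36%. DESeq2 called 2 genes of the list, and 4.87% of all genes with an adjusted p.

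Of 12 factors known to set or keep imprints 11 were tested, 5 lower and 6 higher, with a median of 0.05. DESeq2 called 3 of them, all higher in KO, where it called 4.87% of all genes, and the KO libraries lay all above the WT libraries for these 3, as for 8.36% of all genes. Ctcf, the insulator protein that binds the unmethylated control regions of H19 and other clusters, was at 52.8, 62.3 and 45.1 CPM in WT and at 97.9, 79.0 and 77.9 CPM in KO, with a log2 fold change of 0.67 ± 0.15 and a DESeq2 adjusted p of 0.0021. Trim28, the corepressor that ZFP57 recruits, was at 114.6, 134.1 and 98.9 CPM in WT and at 212.7, 177.7 and 147.3 CPM in KO, with 0.63 ± 0.16 and 0.00759. Eed, a Polycomb repressive complex subunit, was at 41.5, 53.7 and 42.3 CPM in WT and at 82.0, 62.3 and 61.2 CPM in KO, with 0.58 ± 0.16 and 0.0219. None passed in edgeR, where their adjusted p-values were 0.147, 0.184 and 0.215.

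Of 14 genes of the insulin-like growth factor pathway 13 were tested, 8 lower and 5 higher, with a median of -0.06. Igfbp2, a binding protein that limits free IGF, was at 143.5, 231.2 and 117.6 CPM in WT and at 422.6, 372.3 and 344.1 CPM in KO. The groups were far apart, the log2 fold change was 1.21 ± 0.24, and the adjusted p was 0.132 in edgeR and 9.88e-06 in DESeq2. Insr, the insulin receptor, was at 18.6, 23.9 and 22.2 CPM in WT and at 16.0, 17.4 and 13.8 CPM in KO, with -0.45 ± 0.16 and an unadjusted p of 0.0254 in edgeR. Igf2bp2, an RNA-binding protein named for Igf2 mRNA, was at 372.8, 367.7 and 356.0 CPM in WT and at 414.4, 389.8 and 409.5 CPM in KO, higher by 0.15 ± 0.07 on the log2 scale without overlap.

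Of 9 genes that host, overlap or neighbour imprinted genes 8 were tested, with 4 in each direction and a median of -0.02. This list is not separate from those above. Copg2 and Igf2r are among the imprinted genes described, and Kcnq1, Commd1, Trappc9, Blcap and Snurf are among the further imprinted genes. Casd1, a sialic acid acetyltransferase gene beside Sgce, was at 73.3, 105.0 and 65.3 CPM in WT and at 141.1, 125.5 and 115.3 CPM in KO, with a log2 fold change of 0.65 ± 0.18 and a DESeq2 adjusted p of 0.0142. Its imprinted neighbour Sgce was at 0.01 ± 0.16. Kcnq1, the potassium channel gene under Kcnq1ot1, was at 1.03 to 3.41 CPM and overlapped. Blcap, the gene in whose intron Nnat lies, was at 54.4, 54.6 and 50.6 CPM in WT and at 47.9, 48.7 and 43.9 CPM in KO, lower in each KO library by little, with -0.18 ± 0.10 and an unadjusted p of 0.106 in edgeR, while the estimate of Nnat was 0.19 ± 0.13.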

How the data were processed

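Libraries were made with SMART-seq v4 and Nextera XT, which do not mark strand. The authors trimmed reads, aligned them with STAR to GRCm39, counted them per gene with GenomicAlignments and deposited raw counts. The annotation, the versions and the handling of reads shared between genes are not given in the sources used here. The main test was the quasi-likelihood test of edgeR 4.0.16 (R 4.3.3) after filterByExpr and TMM, with genotype as the only term and Benjamini-Hochberg adjustment over all 16353 genes, called at 0.05. The SE of a log2 fold change is its size over the root of F. DESeq2 1.42.0, the tool named by the study, was an alternative on rows with at least 1 count and gave 14353 genes an adjusted p. Both were tested on simulated data. Total counts were 17352498 to 26634523 per library.

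The imprinted genes, their parental alleles and all lists were chosen with earlier results of these data known. Genes with a mean of at least 5 CPM, an unadjusted p under 0.05 or a DESeq2 call were described in every library, and from each list the 3 genes with the smallest edgeR p were named. Symbols were matched for 94.0% of identifiers. Exon lengths and overlaps came from GENCODE M21 and promoters and microRNAs from RefSeq, both on GRCm38, so gene coordinates in the build of the counts are not given.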

Additional observations from a re-analysis of the deposited data

How the results depend on the processing

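No imprinted gene was called under any edgeR setting: size factors of DESeq2, no filter on low counts, the newer estimate of the spread, the first digit of the library code in the labels (8 for WT replicates 1 and 2 and KO replicate 1, 9 for the other 3 libraries) as a term, replicate number as a block, each library left out, or the 2 libraries with most hemoglobin RNA (WT replicate 3 and KO replicate 1) left out. Calls over all genes were 0 in edgeR except for 264 without the filter and 0 to 217 with 1 library left out (217 without WT replicate 2), and 699 in DESeq2. DESeq2 called 1 of the 38 imprinted genes with all libraries. In settings chosen after seeing the data, it called 0 of the 38 and 71 of all genes without the 2 hemoglobin-rich libraries. With 1 library left out, DESeq2 called 450 genes without WT replicate 1 (2 imprinted, Rian and Peg10), 795 without WT replicate 2 (3, Rian, Cdkn1c and Zdbf2), 408 without WT replicate 3 (1, Rian), 296 without KO replicate 1 (1, Rian), 719 without KO replicate 2 (2, Rian and Zim1) and 862 without KO replicate 3 (3, Rian, Meg3 and Zdbf2). With 1 library left out, the median log2 fold change was -0.20 to -0.05 over the imprinted genes, -0.30 to 0.01 over the paternally and -0.25 to -0.03 over the maternally expressed ones, and the last was -0.03 without the 2 hemoglobin-rich libraries. Rian, Meg3, H19, Zim1 and Zdbf2 kept their direction in every setting. They were picked by their p-values in these same counts, so this is no separate support. The groups of Rian, Meg3 and H19 did not overlap, so leaving libraries out could hardly turn their direction.

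Some estimates without a call changed sign. With 1 library left out the ranges were -0.27 to 0.32 for Igf2r, -0.19 to 0.05 for Slc22a18, -0.15 to 0.15 for Sgce, -0.24 to 0.29 for Asb4, -0.05 to 0.09 for Snrpn, -0.11 to 0.03 for Ube3a, -0.74 to 0.16 for Nap1l5, -0.15 to 0.15 for Ndn, -1.22 to 0.82 for Plagl1, -0.27 to 0.04 for Copg2, -0.17 to 0.21 for Mkrn3, -0.06 to 0.36 for Peg13 and -0.28 to 0.06 for Grb10. Without the 2 hemoglobin-rich libraries Peg3 was at 0.08, Ndn at 0.11, Mkrn3 at -0.23, Plagl1 at 0.15, Grb10 at 0.00 and Peg13 at -0.08. With the first digit of the library code as a term Slc22a18 was at 0.00 and Snrpn at -0.01. The cause of these changes was not tested.

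With the replicate number as a block Asb4 was at -0.03, none of the other 27 genes described in every library changed sign, Rian was at -0.67 with an adjusted p of 0.199, and 0 genes were called. The labels do not say what the numbers mark, nor what the code number common to WT replicate 2 and KO replicate 1 stands for. Deviations of same-numbered libraries from their group means correlated at -0.21, 0.29 and 0.08 for numbers 1, 2 and 3, and the libraries numbered 2 were the only ones to correlate best with their own number, so the numbers were not taken as pairs.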
